A study of Mus musculus with 12 samples.

Results

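The 10 genes described here are the Fos family members Fos, Fosb, Fosl1 and Fosl2, the Jun family members Jun, Junb and Jund, the stress-responsive factor Atf3, and the immediate early genes Ier2 and Ier3. They were taken by gene name from the count table, where each name stood for 1 of the 54232 gene identifiers. Of the 10 genes, 9 were among the 12897 genes that passed the filter on low counts, and Ier2 was not. RNA was sequenced from 12 tumors of SVR, a mouse endothelial line transformed with a viral large T antigen and oncogenic H-ras that serves as an angiosarcoma model. The tumors were grown in athymic nude mice of 8 to 12 weeks, which lack T cells, and the samples carry the strain label C57BL/6. Per the labels, gavage began 3 to 7 days after injection and was repeated daily until a tumor ulcerated or exceeded 1 cm. The 4 groups of 3 tumors received vehicle (control), trametinib at 1 mg/kg, cediranib at 3 mg/kg, or both drugs at these doses (combination). Trametinib inhibits MEK, the kinase that activates ERK, and cediranib inhibits VEGF receptor kinases. All tumors came from 1 cell line, and because host and tumor cells are both mouse cells, the reads do not separate them. The study also describes an experiment in which all tumors were taken at a common time, and neither the experiment nor the time on treatment is stated for these 12 tumors.

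AP-1 is a dimer of basic leucine zipper proteins that binds short DNA elements in promoters and enhancers. Jun proteins can pair with each other or with Fos proteins, while Fos proteins generally need a Jun partner. Fos, Fosb, Jun, Junb, Atf3, Ier2 and Ier3 are induced within minutes of growth factor or stress signals. For Fos this occurs in large part through ERK acting on serum response factor and its ETS partners at the promoter. Fosl1 is a delayed target that depends on sustained ERK activity, whereas Jund is transcribed in most cells at rest. In endothelial cells AP-1 acts downstream of VEGF and of mechanical stress.

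The promoters of members whose transcripts were measured are shown for the elements they hold. RefSeq (GRCm38.p6) gave a window of 300 bases, 250 before and 50 after the start site, for 8 of the 10 members. Stretches of 120 bases, 100 before and 20 after the start, are printed on the gene's strand for Fos, Fosb and Junb, which stood lower in all trametinib treated tumors, for Jun, which overlapped, and for Fosl2, which stood higher. In these, capitals mark TGACATCA, TGACG or TATAAA. They lie at chr12:85473790-85473909 on the plus strand (Fos), chr7:19310026-19310145 on the minus strand (Fosb), chr4:95052203-95052322 on the minus strand (Jun), chr8:84978729-84978848 on the minus strand (Junb) and chr5:32136372-32136491 on the plus strand (Fosl2).
Fos: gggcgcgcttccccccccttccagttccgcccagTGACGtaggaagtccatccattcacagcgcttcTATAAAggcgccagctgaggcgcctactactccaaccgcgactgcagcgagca
Fosb: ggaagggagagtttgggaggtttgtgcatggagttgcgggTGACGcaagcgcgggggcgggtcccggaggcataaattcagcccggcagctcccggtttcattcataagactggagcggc
Jun: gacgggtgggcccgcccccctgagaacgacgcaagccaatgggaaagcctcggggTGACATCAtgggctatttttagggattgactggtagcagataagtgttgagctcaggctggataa
Junb: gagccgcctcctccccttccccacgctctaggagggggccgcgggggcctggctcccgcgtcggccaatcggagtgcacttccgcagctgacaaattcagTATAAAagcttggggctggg
Fosl2: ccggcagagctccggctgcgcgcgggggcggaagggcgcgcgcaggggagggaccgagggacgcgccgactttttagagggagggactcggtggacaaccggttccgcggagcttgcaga

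Searched on both strands, TGACATCA, the form of the AP-1 element known from the Jun promoter, was found at -45 to -38 of Jun and in 3.62% of 32851 RefSeq windows of the same length. The letters TGACG, the core of the cAMP response element and a part of TGACGTCA, were found in 4 members. They stood at -129 to -125 and -66 to -62 of Fos, -60 to -56 of Fosb, -106 to -102 of Junb and, on the other strand, -7 to -3 of Atf3, and in 20.8% of all windows. This motif was chosen after the windows had been seen. TATAAA stood at -33 to -28 of Fos and at 1 to 6 of Junb, whose RefSeq start lies 30 bases upstream of the gene as counted, and in 13.6% of windows. The GC box GGGCGG was held by 6 members and by 35.7% of windows. The AP-1 site TGACTCA (5.2% of windows), TGACGTCA (1.79%) and the CArG box of serum response factor (1.63%) were held by 0 of the 8 members in these windows. Sites more than 250 bases upstream of a start were outside the search, so a promoter may hold them there. The RefSeq starts of Jund and Atf3 differed from those of the counted genes by 1210 and 34706 bases, and their windows are not printed. That of Fosl2, which is printed, lies 671 bases inside the counted gene.

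Libraries were enriched with exome capture probes before sequencing, so a count depends on a gene's probes as well as on its transcripts. They held 9478865 to 11666094 counts, and a count of 3, the limit that a count of 0 allows, equaled 0.251 to 0.349 CPM (counts relative to a library size scaled with TMM factors), for counting error only. Differences were tested with the quasi-likelihood F test of edgeR in 1 model of all 12 tumors, with false discovery rates (FDR, Benjamini-Hochberg) over all 12897 genes. A gene that rose or fell passed an FDR of 0.05, and a gene was called when its log2 fold change was also at least 1.5 in size, the threshold the study used. The labels do not say whether the tumors of a group came from separate mice, so p-values measure the spread between these tumors. Summed markers of cell types differed between groups. The summed CPM of 30 epidermal markers was 31.6 to 858 in control, 38.6 to 54.5 in trametinib, 56.0 to 5489 in cediranib and 4663 to 7295 in combination treated tumors, and that of 14 endothelial markers was 212 to 463, 56.7 to 118, 126 to 345 and 35.0 to 86.5. In bulk tumor RNA, fewer cells of a type and less RNA per cell cannot be told apart. SVR is itself an endothelial line, so endothelial markers can come from tumor cells as well as host cells.

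Per kilobase of the gene length in the table, Jund was the most abundant member in control tumors, at 126 ± 25.04 RPKM (SD, n = 3), and stood at the 97th percentile of the genes tested. Jun (36.4 ± 11.4 RPKM) and Junb (32.8 ± 2.33 RPKM) followed and overlapped between tumors. Fosl2 was the most abundant Fos family transcript, at 17.3 ± 5.499 RPKM, and overlapped with Atf3 (13.0 ± 6.38 RPKM). Below them, neighboring ranges of Atf3, Fos (7.24 ± 4.69 RPKM) and Ier3 (6.17 ± 3.42 RPKM) also overlapped. Fosl1 (2.37 ± 0.0662 RPKM) lay below all of these in every control tumor. Fosb (0.599 ± 0.535 RPKM) and Ier2 (0.289 ± 0.0403 RPKM) were the least abundant. In trametinib and combination treated tumors Fosl2 took the second place, at 29.1 ± 10.1 and 34.4 ± 3.62 RPKM, overlapping with Jun at 24.8 ± 3.00 and 29.0 ± 3.12 RPKM.

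**Figure D1:**
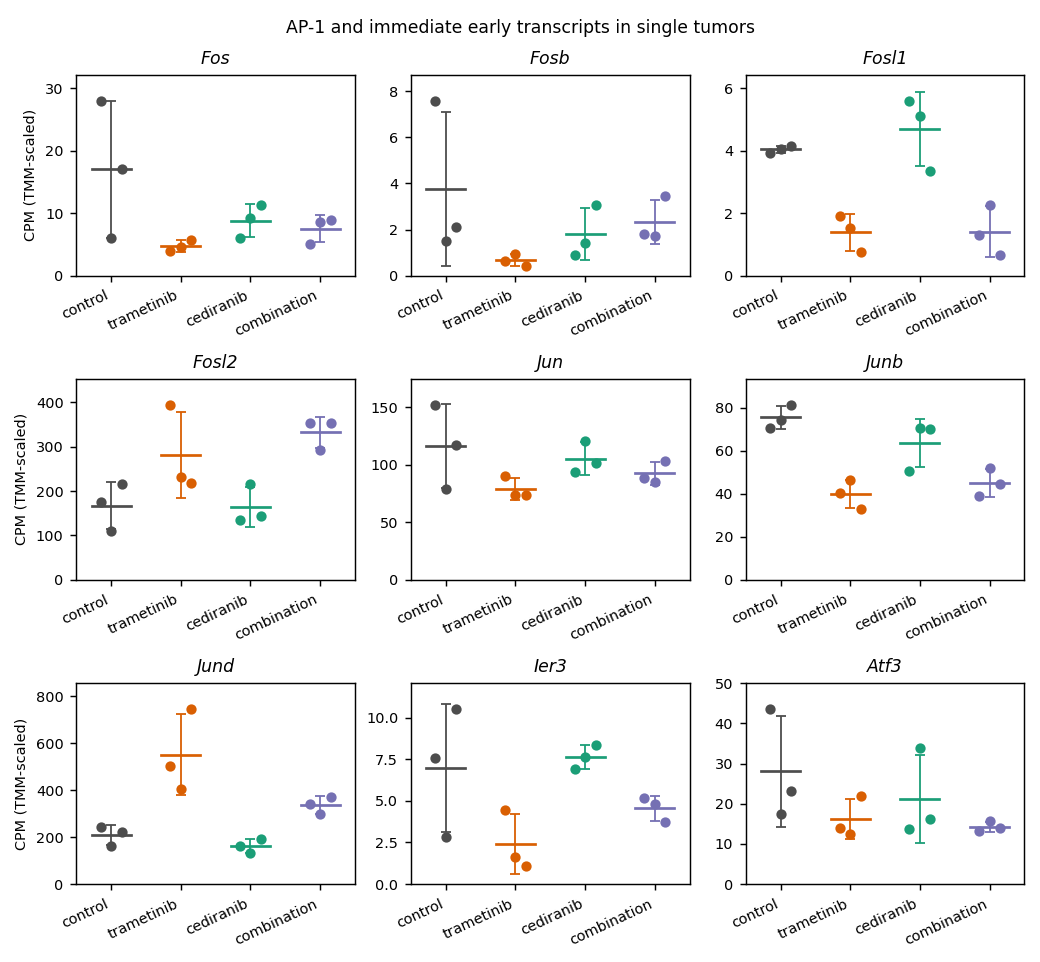
TMM-scaled CPM of the 9 genes tested in each tumor (points), by treatment, with the mean of 3 tumors (horizontal line) and 1 SD (bars). Each vertical axis starts at 0 and has its own scale. Jund lies at 407 CPM or more in the 3 trametinib treated tumors and at 245 CPM or less in the controls, while Fos in the controls spreads from 5.98 to 28.02 CPM.

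In trametinib treated tumors compared to control, Jund rose 2.63-fold, while Junb fell to 0.528 and Fos to 0.279 of the control level. Of the 9 members tested, 1 (Fos) was called, against 2.4% of all genes tested, and 3 passed the FDR, against 6.12% of all genes. One member (1 of 9, Jund) rose, against 2.64% of all genes, and 2 (Junb and Fos) fell, against 3.47%. At an unadjusted p under 0.05 there were 8 members, all except Atf3, and 20.7% of all genes. The 3 treated tumors lay entirely below the 3 controls for Fos, Fosb, Fosl1 and Junb (4 of 9 members, against 12.9% of all genes) and entirely above them for Fosl2 and Jund (2 of 9, against 12.9%). The median log2 fold change of the 9 members was -0.92, beside 0.01 over all genes tested. Endothelial markers fell along with them (4 of the 11 tested), and their part in the members' change was not tested.

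In cediranib treated tumors compared to control, 0 members were called or passed the FDR, and so did 0% of all genes tested. At an unadjusted p under 0.05 there were 0 members and 4.32% of all genes. Fos had the smallest p of the members, with a log2 fold change of -0.95 and a 95% interval from -1.92 to 0.02. It passed the FDR (0.039) in edgeR without the filter on low counts and in no other alternative. The interval for Fosl2 ran from -0.63 to 0.58 and that for Jun from -0.58 to 0.30. Only Junb separated the groups, with 3 cediranib treated tumors below 3 controls (1 of 9 members, against 3.45% of all genes, and 0 in the upward direction, against 4.31%), at a log2 fold change of -0.24 (SE 0.17). The median of the members was -0.24, beside -0.00 over all genes.

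In combination treated tumors compared to control, Fosl1 fell to 0.352 and Junb to 0.598 of the control level, while Fosl2 rose 1.99-fold. One member (1 of 9, Fosl1) was called, against 3.61% of all genes, and 3 passed the FDR, against 9.98%. Of these 1 rose, against 4.85% of all genes, and 2 fell, against 5.13%. At an unadjusted p under 0.05 there were 6 members and 27.2% of all genes. Junb, Fosl1 and Atf3 lay below all controls in the 3 combination treated tumors (3 of 9, against 15.7% of all genes) and Fosl2 and Jund above them (2 of 9, against 15.6%). The median of the members was -0.69, beside 0.00 over all genes. Of the tested epidermal markers, 10 of 27 rose in the same comparison, and 7 of 11 endothelial markers fell. Hair follicle markers also rose (5 of 11), while erythroid (4 of 5) and macrophage and myeloid markers (4 of 12) fell. The part of these in the members' change was not tested. With an epidermal score, the mean log2 CPM of 18 epidermal genes, added to the model, 0 members passed the FDR. Fosl1 then had a log2 fold change of -1.43 (FDR 0.464), Junb of -0.57 (FDR 0.475) and Fosl2 of 1.41 (FDR 0.173), by the same edgeR test. The score was -0.58 to 1.29 in control, -1.37 to -1.06 in trametinib, -0.46 to 2.83 in cediranib and 3.01 to 3.51 in combination treated tumors. Only control and cediranib treated tumors overlapped. In other comparisons this model cannot well separate the score from the treatment, so an FDR lost in it decides nothing about epidermis.

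Between combination and trametinib treated tumors 0 members passed the FDR in edgeR's quasi-likelihood test, where 0.675% of all genes were called and 0.969% passed the FDR. At an unadjusted p under 0.05 there were 2 members, Fosb and Jund, and 17.9% of all genes. Fosb lay higher (1 of 9 members, against 12.4% of all genes) and Jund lower (1 of 9, against 11.8%) in all 3 combination treated tumors. Jund passed the FDR by DESeq2 (-0.70, FDR 0.0424), and Jund (FDR 0.000683) and Fosb (FDR 0.00825) did in edgeR without the filter on low counts. In the same comparison 9 of 27 epidermal markers rose. Against cediranib, 1 member (Fosl1) was called in combination treated tumors, where 2.45% of all genes were, and 3 passed the FDR, where 7.68% did. At an unadjusted p under 0.05 there were 4 members and 23.1% of all genes, and 2 members lay above (Fosl2 and Jund, against 14.1%) and 2 below (Ier3 and Fosl1, against 14.3%) all cediranib treated tumors. Endothelial markers fell there too (4 of 11). In trametinib against cediranib treated tumors, Jund and Fosl1 were called (2 of 9, against 3.49%) and Junb passed the FDR in addition (3 of 9, against 8.65%). Here 5 members had an unadjusted p under 0.05, against 24.7% of all genes, 2 lay above (Fosl2 and Jund, against 14.4%) and 5 below all cediranib treated tumors (Fos, Fosl1, Jun, Junb and Ier3, against 13.9%). In this comparison 17 of 27 epidermal and 3 of 11 endothelial markers fell and 4 of 10 fibroblast markers rose. Their part in the members' differences was not tested. The interaction, the effect of adding cediranib to trametinib minus the effect of cediranib alone, was called for 0 members and 0% of all genes, and 2 members (Fos and Fosb) had an unadjusted p under 0.05, against 7.05% of all genes. With the epidermal score in the model, 0 members passed the FDR for combination against cediranib and 1 (Jund) for trametinib against cediranib. In the former Jund then had an FDR of 0.0739 by edgeR, and Jund, Fosl1 and Fosl2 kept their directions. These comparisons share tumors with each other, and their values for a member are not independent.

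**Figure D2:**
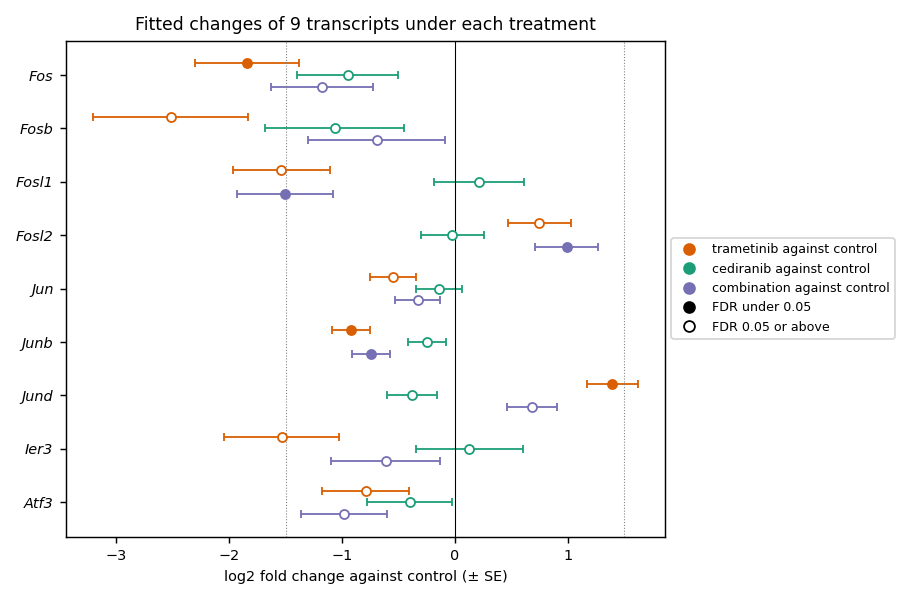
Fitted log2 fold change (horizontal axis) of 9 members in trametinib, cediranib and combination treated tumors against the same 3 controls, with bars of 1 SE. Filled points passed an FDR of 0.05 in edgeR, and dotted lines mark a log2 fold change of 1.5 in either direction. All 9 cediranib points are open, and Jund and Fosl2 are the members right of 0 under both trametinib and the combination.

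Fos (chr12:85473890-85477273, plus strand, 4 exons) encodes c-Fos, the classic partner of Jun in serum-stimulated cells. It was measured at 28.02, 5.98 and 17.1 CPM in the 3 control tumors, 3.90, 4.54 and 5.78 CPM after trametinib, 5.99, 9.17 and 11.3 CPM after cediranib and 5.05, 8.62 and 8.91 CPM after the combination. The controls were spread more widely than any treated group, and the lowest control stood just above the highest trametinib treated tumor. Trametinib gave a log2 fold change of -1.84 (SE 0.46, FDR 0.0372 by edgeR), and the combination one of -1.18 (SE 0.45, FDR 0.117). Of the 12 fits with 1 tumor left out, the combination passed the FDR in 1, without control replicate 2 (0.0285). It also passed without the filter on low counts. The call for trametinib depended on single tumors. Without control replicate 1 the value was -1.29 (FDR 0.124), and without control replicate 2, the lowest control, it was -2.25 (FDR 0.00516). The FDR also exceeded 0.05 without control replicate 3 (0.0882), without trametinib replicate 1 (0.125), 2 (0.106) or 3 (0.0784), and without combination replicate 2 (0.0503). With the epidermal score in the model it was -1.59 (FDR 0.106). Control replicate 1, the highest for Fos, also had the highest summed epidermal markers of the controls, and the part of that in its Fos level was not tested. Among the 8 promoter windows, that of Fos alone held TATAAA upstream of the RefSeq start. Junb held it at 1 to 6 of a RefSeq start that lies 30 bases upstream of the gene as counted.

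Fosb (chr7:19302696-19310046, minus strand) encodes a close relative of c-Fos with similar induction. It ranged from 1.52 to 7.58 CPM in control, 0.419 to 0.931 CPM in trametinib, 0.899 to 3.06 CPM in cediranib and 1.72 to 3.43 CPM in combination treated tumors. Its trametinib treated tumors had 5 to 8 counts each and lay below all control and combination treated tumors, while the lowest cediranib treated tumor fell within their range. Trametinib against control gave -2.52 (SE 0.68, FDR 0.0504 by edgeR), and combination against trametinib 1.83 (SE 0.69, FDR 0.196). The interaction for Fosb was 2.89 (SE 0.93, FDR 0.649) and that for Fos 1.62 (SE 0.64, FDR 0.682). Without control replicate 1 the trametinib value of Fosb was -1.49 (FDR 0.208), and with the epidermal score its combination against trametinib value was -0.08.

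Fosl1 (chr19:5447703-5455945, plus strand) encodes Fra-1, a Fos protein without the strong activation domain of c-Fos. Its control tumors were nearly equal, at 3.92, 4.05 and 4.14 CPM. Trametinib treated tumors stood at 1.91, 1.51 and 0.753 CPM, cediranib treated tumors at 5.60, 5.11 and 3.35 CPM, and combination treated tumors at 1.31, 2.27 and 0.650 CPM. Every tumor that received trametinib, alone or with cediranib, lay below every tumor that did not, at 7 to 25 counts against 35 to 56. How many of all genes separate the tumors in this way was not counted. The log2 fold change against control was -1.54 (SE 0.43, FDR 0.0565 by edgeR) for trametinib and -1.51 (SE 0.43, FDR 0.0455) for the combination. Against cediranib it was -1.75 (SE 0.43, FDR 0.027) for trametinib and -1.72 (SE 0.43, FDR 0.0328) for the combination. Combination and trametinib treated tumors differed by 0.03, with a 95% interval from -0.95 to 1.01. The FDR for the combination against control exceeded 0.05 without any 1 control tumor (0.0671 to 0.116), without replicates 1 (0.0503) and 2 (0.0551) of trametinib and replicates 1 (0.0589) and 2 (0.0522) of cediranib, without replicates 1 (0.115) and 3 (0.118) of the combination. The estimates stayed between -2.03 and -1.17 when any 1 of the 12 tumors was left out. The FDR for trametinib against cediranib exceeded 0.05 without trametinib replicate 2 (0.0667) or 3 (0.0927) or the first (0.0952) or second (0.0564) cediranib treated tumor. For the combination against cediranib it did so without the first (0.0983) or second (0.0804) cediranib treated tumor or combination replicate 1 (0.0955) or 3 (0.0909). A longer gene model of Fosl1 in GENCODE M21 overlaps Ccdc85b on the other strand, but the genes as counted do not overlap. Ccdc85b had 76 to 282 counts in a tumor and a log2 fold change of -0.56 (SE 0.36, FDR 0.431) under trametinib.

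Fosl2 (chr5:32135801-32157842, plus strand, 4 exons) encodes Fra-2, the other Fos protein without a strong activation domain. It was measured at 174, 111 and 217 CPM in control, 394, 232 and 218 CPM in trametinib, 134, 217 and 144 CPM in cediranib and 352, 292 and 353 CPM in combination treated tumors. All 6 tumors that received trametinib lay above all 6 that did not, with 218 against 217 CPM at the boundary. The share of all genes with such a separation was not counted. The combination against control gave 0.99 (SE 0.28, FDR 0.0446 by edgeR), combination against cediranib 1.01 (SE 0.28, FDR 0.048), and trametinib against control 0.75 (SE 0.28, FDR 0.149). The combination against control no longer passed the FDR without any 1 control (FDR 0.0509 to 0.138) or combination treated tumor (0.0729 to 0.109) and without cediranib replicate 1 (0.0525) or 3 (0.0536), with estimates from 0.76 to 1.22. The combination against cediranib no longer passed it without cediranib replicate 1 (0.155) or 3 (0.128), any 1 combination treated tumor (0.0777 to 0.119), control replicate 1 (0.0596) or trametinib replicate 2 (0.0545). The log2 fold changes of Fosl2 and Fosl1 had opposite signs for trametinib and for the combination, against control and against cediranib alike.

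Jun (chr4:95049034-95052222, minus strand, 1 exon) encodes c-Jun, whose gene is a target of its own product. It ranged from 79.2 to 152 CPM in control, 73.3 to 90.2 CPM in trametinib, 93.5 to 121 CPM in cediranib and 84.6 to 104 CPM in combination treated tumors. Each of the treated groups overlapped with the controls, of which replicate 1 was the highest and replicate 2 the lowest. The log2 fold change was -0.55 (SE 0.20, FDR 0.143 by edgeR) for trametinib, -0.14 (SE 0.20) for cediranib and -0.33 (SE 0.20, FDR 0.321) for the combination, with a 95% interval from -0.99 to -0.11 for trametinib. The trametinib value passed the FDR without control replicate 2 (0.0293) and without the filter on low counts (0.0155), and in no other alternative.

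Junb (chr8:84974484-84978718, minus strand) encodes a Jun protein that activates transcription less strongly than c-Jun and can restrain it. Its control tumors were close together, at 70.8, 74.4 and 81.3 CPM. It stood at 40.2, 46.4 and 33.1 CPM after trametinib, 50.7, 70.5 and 70.0 CPM after cediranib and 38.8, 52.0 and 44.6 CPM after the combination. Trametinib treated tumors lay below all control and cediranib treated tumors, and 1 combination treated tumor slightly exceeded the lowest cediranib treated tumor. The log2 fold change was -0.92 (SE 0.17, FDR 0.00758 by edgeR) for trametinib and -0.74 (SE 0.17, FDR 0.0194) for the combination against control, and -0.68 (SE 0.17, FDR 0.0297) for trametinib against cediranib. With any 1 of the 12 tumors left out, the trametinib value stayed between -1.04 and -0.81 and its FDR at or below 0.033. The combination value then stayed between -0.85 and -0.64, with an FDR above 0.05 without control replicate 2 (0.0515) or 3 (0.0731) or combination replicate 1 (0.0699) or 3 (0.0541). The value for trametinib against cediranib lost the FDR without trametinib replicate 1 (0.0766) or 3 (0.108) or cediranib replicate 2 (0.0777) or 3 (0.0973). Junb shares at most 346 exonic bases with Prdx2 on the other strand, which had 51 to 131 counts in a tumor against 384 to 831 for Junb.

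Jund (chr8:70698949-70700616, plus strand, 1 exon) encodes the Jun protein that prevails in resting cells and opposes growth in several cell types. It was measured at 245, 164 and 220 CPM in control and 503, 407 and 746 CPM in trametinib treated tumors. Cediranib treated tumors had 162, 133 and 190 CPM, and combination treated tumors 342, 297 and 370 CPM. The groups formed steps, with trametinib treated tumors above combination treated tumors and these above all control and cediranib treated tumors. The share of all genes with such steps was not counted. Trametinib gave a log2 fold change of 1.40 (SE 0.23, FDR 0.00374 by edgeR) against control and 1.77 (SE 0.23, FDR 0.000867) against cediranib. The combination gave 0.68 (SE 0.22, FDR 0.0731) against control, 1.06 (SE 0.22, FDR 0.0164) against cediranib and -0.71 (SE 0.22, FDR 0.128) against trametinib. With any 1 tumor left out, the trametinib value stayed between 1.11 and 1.57 with an FDR of 0.0189 or less, while the combination against cediranib lost the FDR without cediranib replicate 1 (0.0586) or 2 (0.0598) or the third combination replicate (0.0541). The combination against control passed the FDR (0.0382) when trametinib replicate 3 was left out, in 1 of 12 such fits. It also passed in 5 of 9 other settings. These were no filter on low counts, DESeq2, edgeR's likelihood ratio test, only these groups fitted and a replicate block.

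The antisense gene Gm11175 shares at most 951 exonic bases with Jund on the opposite strand. Its counts equaled 98.95% to 99.62% of those of Jund in all 12 tumors, and its log2 fold change under trametinib was 1.40 as well. Reads of the 2 genes cannot be told apart in these counts, and the values given for Jund are those of this locus on both strands.

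The makeup of each family is given as a description. Jund made up 64.4% ± 1.05 (SD, n = 3) of the summed RPKM of Jun, Junb and Jund in control, 88.0% ± 3.78 in trametinib, 61.2% ± 6.54 in cediranib and 80.5% ± 1.93 in combination treated tumors. The summed RPKM of the family was 195 ± 36.0 in control and 373 ± 101 in trametinib treated tumors, without overlap. Among the 4 Fos family transcripts, Fosl2 made up 64.0% ± 8.76 of the summed RPKM in control, 90.2% ± 2.74 in trametinib, 71.0% ± 4.46 in cediranib and 88.5% ± 3.39 in combination treated tumors. The sum over the Fos family was 27.5 ± 9.42 in control and 32.0 ± 10.1 in trametinib treated tumors, which overlapped. For both shares, trametinib and combination treated tumors lay above all controls, which follows from the members' own values and is no separate result. The ratio of Jund to Junb in RPKM was 3.85 ± 0.877 in control, 20.2 ± 9.83 in trametinib, 3.58 ± 0.916 in cediranib and 10.5 ± 2.31 in combination treated tumors. The shares and the ratio were chosen after the values of the members had been seen. They compare genes with different probes, so a share is of captured reads per length and not of molecules.

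**Figure D3:**
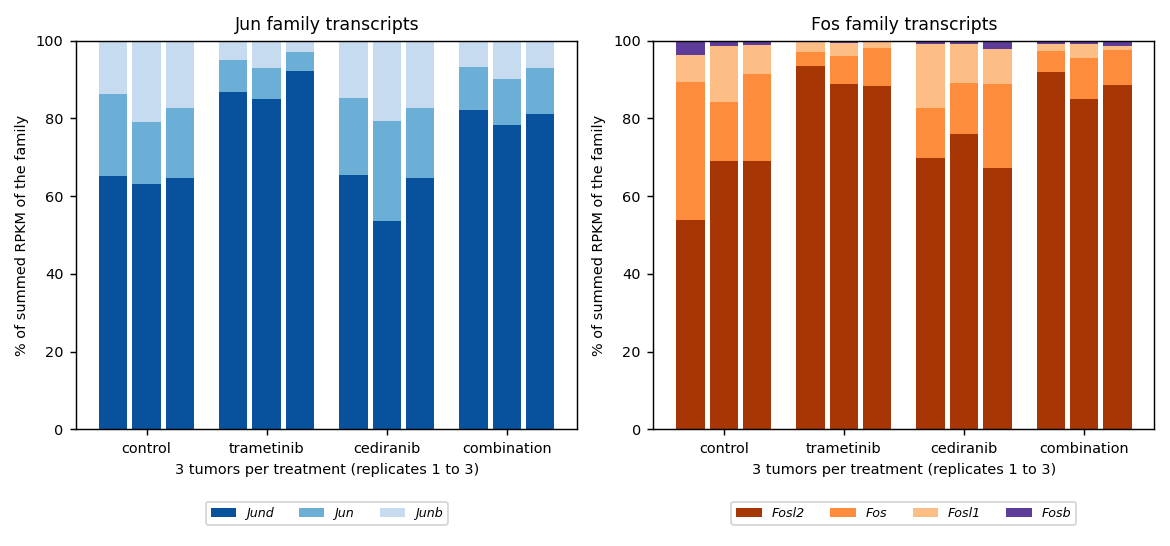
Share of each Jun family (left) and Fos family (right) transcript in the summed RPKM of its family, in % (vertical axis), for each of the 12 tumors (1 stacked bar each, replicates 1 to 3 from left to right in a treatment). Jund and Fosl2 form the lowest segments, and both reach at least 78.4% in every trametinib and combination treated tumor, against at most 75.9% in every control and cediranib treated tumor.

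Atf3 (chr1:191170296-191218039, minus strand, 5 merged exons) encodes a bZIP factor of the stress response that can pair with Jun proteins. It ranged from 17.3 to 43.5 CPM in control, 12.6 to 21.9 CPM in trametinib, 13.7 to 33.9 CPM in cediranib and 13.1 to 15.6 CPM in combination treated tumors. Only combination treated tumors lay below all controls, with a log2 fold change of -0.98 (SE 0.38, FDR 0.124 by edgeR). For trametinib it was -0.79 (SE 0.38, FDR 0.268).

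Ier3 (chr17:35821684-35822923, plus strand) encodes a small protein that modulates ERK dephosphorylation and survival. It ranged from 2.84 to 10.5 CPM in control, 1.09 to 4.45 CPM in trametinib, 6.89 to 8.33 CPM in cediranib and 3.71 to 5.15 CPM in combination treated tumors. Control replicate 2 fell within the range of the trametinib treated tumors, and the other 2 controls lay above it. Trametinib gave -1.54 (SE 0.51, FDR 0.10 by edgeR) against control and -1.66 (SE 0.51, FDR 0.0631) against cediranib. Without control replicate 2 the value against control was -1.91 (FDR 0.041), and without trametinib replicate 1 it was -2.37 (FDR 0.0256).

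Ier2 (chr8:84661331-84662852, minus strand, 1 exon), an immediate early gene for a nuclear protein, had 4 to 6 counts in control, 0 to 3 in trametinib, 2 to 11 in cediranib and 1 to 2 in combination treated tumors. Many of these values are at or below the limit of 3 counts, and Ier2 did not pass the filter, so its differences were not tested.

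The other genes of the pathway were grouped by role, in lists drawn up with earlier results of these data known. Among 39 tested immediate early genes outside the AP-1 families, 2 rose and 12 fell under trametinib and 3 rose and 12 fell under the combination, with median log2 fold changes of -0.40 and -0.32. Over all genes tested, 2.64% rose and 3.47% fell under trametinib and 4.85% rose and 5.13% fell under the combination, and these shares are the background of the lists that follow. Among these 39 immediate early genes, the largest F statistics under trametinib were those of Egr1, a zinc finger factor (-4.49, SE 0.23), and of the ERK phosphatases Dusp6 (-3.70, SE 0.24) and Dusp5 (-3.38, SE 0.31). Their FDRs by edgeR were 2.15e-06, 1.59e-05 and 0.000101. Each of the 3 had a larger fitted change than any AP-1 member.

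Among 18 other bZIP genes that can pair with or compete with AP-1, 1 fell under trametinib. This was Maff, a small MAF protein, at -1.61 (SE 0.41, FDR 0.0408 by edgeR), and the median of the list was -0.06. Under the combination 1 rose, the cAMP-responsive factor Crem, at 0.80 (SE 0.21, FDR 0.037). A count of 1 in 18 is near the background in both cases. Of 11 genes for factors acting at the Fos and Jun promoters, 1 fell under trametinib (against 3.47% of all genes) and 3 fell under the combination (against 5.13%). Elk3, an ETS partner of serum response factor, fell in both (-0.69, SE 0.13, and -0.79, SE 0.13), and Srf itself fell under the combination (-0.65, SE 0.14, FDR 0.0128), as did Elk4 (-0.55, SE 0.16, FDR 0.0473). The medians of this list were 0.16 and 0.15.

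Among 9 tested JNK and p38 kinases and their activators, the kinases that phosphorylate Jun and ATF proteins under stress, 2 fell under trametinib, against 3.47% of all genes. They were Map2k3 (-1.32, SE 0.17, FDR 0.000953 by edgeR) and Map2k6 (-1.91, SE 0.26, FDR 0.00139), both activators of p38, and both also fell under the combination (-1.26, SE 0.17, and -1.42, SE 0.25). The list had a median of -0.03 under trametinib. Of 17 tested genes often described as AP-1 targets, 8 fell under trametinib and 7 under the combination, against 3.47% and 5.13% of all genes, and 0 rose in either. Ccnd1, which encodes cyclin D1, stood at -2.29 (SE 0.16) and -1.60 (SE 0.16), and Hmga2, a chromatin protein gene, at -2.33 (SE 0.22) and -1.23 (SE 0.21), in trametinib and combination treated tumors. The medians of the list were -0.72 and -0.60, beside 0.01 and 0.00 over all genes tested. Of 10 heat shock genes, which respond to handling of tissue, 0 passed the FDR under trametinib and 1 fell under the combination, Hspa8 (-0.69, SE 0.19, FDR 0.0375). Under cediranib 0 genes of these 6 lists passed the FDR, as was so for all genes tested.

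Within the control group, tumors spread widely for Fos, Fosb, Jun, Atf3, Ier3 and Fosl2 and little for Junb and Fosl1. Relative to the mean log2 CPM of its group, control replicate 1 stood at 0.97 for Fos and control replicate 2 at -1.23, and the same 2 tumors were the highest and the lowest controls for Fosb, Jun and Atf3. For Ier3 and Fosl2 control replicate 2 was again the lowest (-1.06 and -0.54), but control replicate 3 was the highest (0.76 and 0.43). Over the 12 tumors, deviations from the group means had a Pearson r of 0.726 between Fos and Fosb, 0.76 between Fos and Jun and 0.674 between Fos and Atf3. Those of Junb had an r of 0.227 with Fos and 0.0863 with Jun. Fosl2 deviated together with Ier3 (0.831) and Jun (0.764). These values describe 12 tumors whose libraries are shared by all genes, and control replicates 1 and 2 hold the largest deviations of Fos. Control replicate 2 also held the highest summed skeletal muscle markers of the controls (18653 CPM, against a median of 456 CPM), and the part of this in its levels was not tested.

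**Figure D4:**
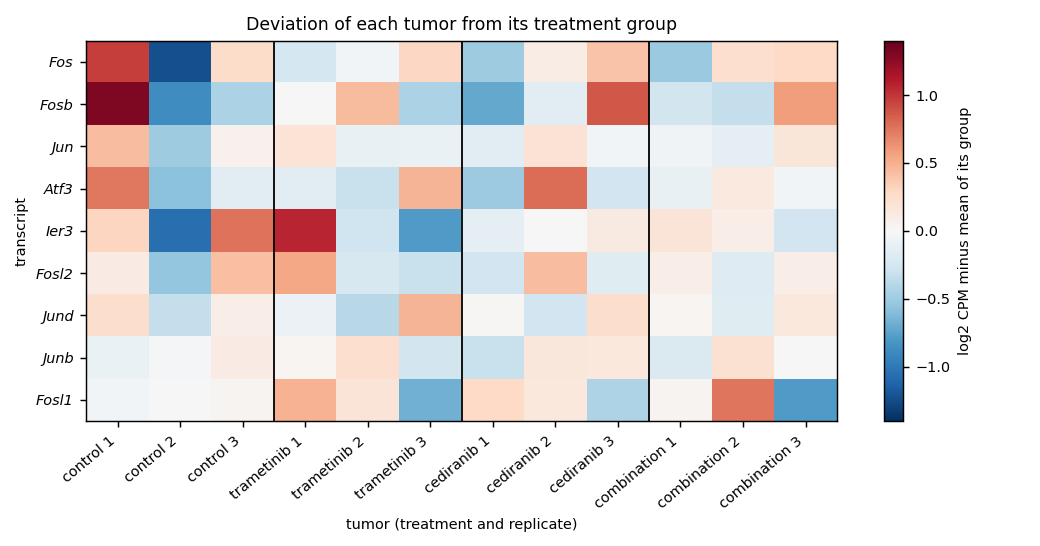
Deviation of each tumor (columns) from the mean of its treatment group in log2 CPM (color, red above and blue below) for the 9 members tested (rows). Control replicate 1 is above and control replicate 2 below the group mean for Fos, Fosb, Jun and Atf3, while Junb stays pale in every tumor.

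Across all 12 tumors, the genes with the most similar log2 CPM among 11111 protein coding genes tested differed between members. For Fosl1 they were Plaur, the urokinase receptor gene (r = 0.965), Ptprn (0.957) and Pop1 (0.939). For Jund they were Ablim1 (0.965), Hoxd8 (0.951) and Wdtc1 (0.932), for Junb Mfng (0.954), Egr2 (0.946) and Kdm5b (0.933), and for Fosl2 Selenbp1 (0.939), Sema3a (0.918) and Foxo1 (0.917). Fosb was most like Rgs2 (0.929), Kdm6b (0.921) and Zbtb37 (0.843), and Fos like Riok3 (0.843), Fam60a (0.839) and Gab2 (0.829). Atf3 was near the heat shock genes Dnaja1 (0.872) and Hspa1b (0.857) besides Gm20695 (0.877). Jun was most like Rab5a (0.885), Gab2 (0.866) and Opa1 (0.863), and Ier3 like the hexokinase gene Hk2 (0.907), Prss12 (0.904) and Abcc1 (0.901). These r describe 12 tumors in 4 treatment groups, so genes that separate the groups alike are also alike by this measure.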

How the data were processed

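RNA from 12 SVR tumors, 3 per treatment, was measured as counts per gene. The authors deposited raw counts without normalization; the submitters' processing notes name bcl2fastq 1.8.4, STAR 2.7.1a, featureCounts 1.6.0 and GRCm38. Not given in the sources used here are the annotation, the strand option and how multi-mapping reads were counted. Samples were grouped by their treatment label, and 0 columns were left unmapped. Nothing states how much tumor RNA was degraded per sample, although the study chose exome capture for degraded RNA.

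Counts were filtered with filterByExpr (minimum count 10, minimum total 15), scaled with TMM and tested by quasi-likelihood (edgeR 4.0.16, R 4.3.3) in a single fit of the 12 tumors, with Benjamini-Hochberg adjustment over all 12897 genes. The biological coefficient of variation was 27.2%. A call needed an FDR of 0.05 and a log2 fold change of 1.5 in size. Standard errors were derived from the fold change and its F statistic, and a prior count of 2 entered log2 CPM. The scripts were tested on simulated data. DESeq2 1.42.0, other scalings, no filter, edgeR's likelihood ratio test, a replicate block, an epidermal covariate and leaving out tumors were alternatives. RPKM used the gene length of the table. Overlaps and exon counts came from GENCODE M21.

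The members and gene lists were chosen with earlier results of these data known. All 10 members are named, with each tumor's value for those that passed the FDR in any comparison. Of other lists at most 3 genes with the largest F are named, and of likeness the 3 highest r. Protein sequences were not used here.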

Additional observations from a re-analysis of the deposited data

How the results depend on the processing

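Directions and calls of single members were recomputed under 9 settings besides leaving out 1 tumor at a time. Junb and Jund for trametinib against control and Jund for trametinib against cediranib passed the FDR in all of these. Counts of called members were less stable. For trametinib against control, 1 was called (Fos), 4 without the filter on low counts, 4 by DESeq2 and 4 by edgeR's likelihood ratio test (Fos, Fosb, Fosl1 and Ier3), 3 by the FDR alone, 0 when only these groups were fitted, and 0 to 3 with 1 tumor left out. Members that passed the FDR there numbered 9 without the filter, 6 by DESeq2, 6 by the likelihood ratio test and 2 with only these groups. With 1 tumor left out they numbered 2 to 6. For combination against control 1 was called, and 3 by the FDR alone. The count was 0 with library totals alone, which shifted the median of all genes by 0.128. It was 0 without the filter, 0 with only these groups, 0 with the epidermal score and 0 to 1 with 1 tumor left out. Without the filter, 6 members passed the FDR there, and Fosl1, which was among them, missed only the fold threshold. With the filter its log2 fold change of -1.51 lay just beyond that threshold. With library totals alone, only these groups or the epidermal score, Fosl1 did not pass the FDR. For combination against cediranib the count of called members was 1, and 3 by the FDR alone. It was 0 with only these groups, 0 with the epidermal score and 0 without control replicate 2 and trametinib replicate 2 together. That last alternative was added after seeing the data, for the high skeletal muscle counts of these 2 tumors. With 1 tumor left out the count was 0 to 1. For trametinib against cediranib it was 2, and 3 without the filter, 3 by DESeq2 and 3 by the likelihood ratio test (Fosl1, Ier3 and Jund), 1 with the epidermal score, 1 without those 2 tumors together and 0 to 3 with 1 tumor left out. Without the filter, combination against trametinib gave 1 (Fosb) and the interaction 2 (Fos and Fosb), where the count was 0. The cause of these changes was not tested. With a replicate block, Fosl1 in place of Fos was called for trametinib against control (count 1), and the FDR of Fos was 0.0597. The block left the other counts at 0, 1, 0, 1, 2 and 0. By the FDR alone, Fosl1, Junb and Jund then passed for combination against control and Fosl1 and Jund for combination against cediranib. Fosl2 passed in neither. Same-numbered tumors had deviations with r of -0.219 to 0.356, over 0.1 in 3 of 18 pairs. Differently numbered tumors were not compared, so these r cannot decide whether the numbers pair the tumors.

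Log2 fold changes that turned sign were ones that had not passed the FDR. With the epidermal score, combination against trametinib became -0.051 for Fos, -0.076 for Fosb and 0.41 for Atf3, combination against cediranib became -0.28 for Fosb, and cediranib against control 0.16 for Fosl2 (0.014 with the block). Without those 2 tumors together, Ier3 under cediranib was -0.25. With 1 tumor left out, cediranib against control ran from -0.27 to 0.21 for Fosl2, -0.35 to 0.088 for Jun, -0.24 to 0.54 for Ier3 and -0.91 to 0.053 for Atf3. Combination against cediranib ran from -0.44 to 0.0044 for Fos and -0.018 to 1.01 for Fosb, combination against control from -1.09 to 0.35 for Fosb, and combination against trametinib from -0.49 to 0.38 for Fosl1 and -0.34 to 0.10 for Atf3. Trametinib against cediranib ran from -0.67 to 0.12 for Atf3, and the interaction from -0.69 to 0.18 for Fosl1 and -0.23 to 0.72 for Atf3. Counts in trametinib treated tumors were 5 to 8 for Fosb, 9 to 21 for Fosl1 and 13 to 49 for Ier3, which limits their precision.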
